A study of Mus musculus with 4 samples.

Results

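The MYC, MAX and MXD network is the small family of basic helix-loop-helix leucine zipper factors that meet at MAX, and its m6A peaks were examined here in mouse natural killer (NK) cells. The 10 genes were Myc, Mycn, Mycl, Max, Mxi1, Mxd1, Mxd3, Mxd4, Mnt and Mga, and their members in the data were the distinct peaks that name their Ensembl gene. Of the 20727 distinct peaks in 12351 genes, 14 belonged to this network. They lay in 8 of the 10 genes, and Mycn and Mycl were listed with no peak.

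The study profiled m6A in the mRNA of NK cells by methylated RNA immunoprecipitation sequencing, in which an antibody pulls down RNA fragments that carry N6-methyladenosine. There were 4 libraries, 2 of m6A immunoprecipitate and 2 of input RNA. Both groups came from spleens of C57BL/6 mice taken here as wild-type, though the paper's methods for this assay state no genotype. Their NK cells had been expanded with an injected IL-15 expression plasmid, pLIVE-IL-15, and then sorted. Every library therefore reflects cells with a history of raised IL-15. Mice entered experiments at 6 to 10 weeks of age as far as the general methods say, the cells were sorted 1 to 2 months after the plasmid was given, and whether animals were pooled is not given in the sources used here. The peak list gives 1 fold enrichment (immunoprecipitate over input) and 1 p-value for each peak over all 4 libraries. No error between replicates could therefore be given for any value that follows, no difference between peaks was tested, and the sequencing depth is unknown. A fold enrichment is a ratio of immunoprecipitate to input at a peak, not a level of expression.

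MYC, MYCN and MYCL activate genes of growth and metabolism, and each needs MAX as its partner to bind E-box DNA. MXD1, MXI1, MXD3, MXD4 and MNT compete for MAX and bring SIN3 corepressors to the same sites, while MGA is a very large MAX partner with a T-box domain that acts with polycomb-like repressors. Myc mRNA is short lived. The 3′ end of its coding sequence is a known instability determinant that is bound by IGF2BP proteins, which are also readers of m6A, and IL-15 is known to raise MYC in NK cells.

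Markers of the labelled cell type and of other cells were looked up among the peaks. A fold enrichment is not a level of expression, so these values cannot test which cells were present. All 8 NK cell markers had a peak, 0 of them a strong one (fold enrichment of at least 5), with the lowest log10 p-values at Il2rb (-316) and Gzmb (-165). The shares among all annotated protein-coding genes were 46.3% with a peak and, of those, 43.4% with a strong one. Of 8 markers of T cells, B cells and myeloid cells, 6 had a peak and 3 of these a strong one. The strong ones were the T cell genes Cd3g (31.6-fold, log10 p-value -46.8) and Cd3e (30.3-fold, -6.35) and the B cell gene Cd79a (7.59-fold, -9.11). The lowest log10 p-values were those of the myeloid genes Csf1r (-322) and Lyz2 (-143), and the B cell gene Ms4a1 had no peak. The part of RNA from other cells in the peaks of the network was not tested.

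m6A is placed on the A of DRACH motifs, where D stands for any base but C, R for a purine and H for any base but G, and GGAC is the core most often methylated. The sequences below, read from the RefSeq GRCm38.p6 genome on the strand of each gene, show the motif that the peaks of the results contain. They are the GGAC-type DRACH site nearest the centre of the Myc peak, the first Mxd3 peak, the Mxi1 peak, the Mxd4 peak and the third Mga peak, each with 12 bases on both sides of the central A and the motif in capitals. All lie in 3′ untranslated regions (UTRs), and the Mxd4 site lies at the very edge of its peak, so part of the printed window is outside it.
Myc, chr15:61990030-61990054, plus strand: tggggctttgGGACTgtaagcttca
Mxd3, chr13:55325742-55325766, minus strand: tactctccttGGACTgagcctgcca
Mxi1, chr19:53374605-53374629, plus strand: gcagaggtaaGGACTgtagagaaaa
Mxd4, chr5:34174473-34174497, minus strand: aaagaaagctGGACCaaaatagctg
Mga, chr2:119968764-119968788, plus strand: attaagccatGGACAgtgtaggcag

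The next sequence is the coding part of the Myc peak, from its first base to the stop codon. It is shown because it holds codons of the leucine zipper and lies at the end of the coding sequence known for the instability determinant. The bounds of that determinant were not mapped here, so how much of it the peak holds is not given. Capitals mark its 6 DRACH sites.
Myc, chr15:61989777-61989908, plus strand: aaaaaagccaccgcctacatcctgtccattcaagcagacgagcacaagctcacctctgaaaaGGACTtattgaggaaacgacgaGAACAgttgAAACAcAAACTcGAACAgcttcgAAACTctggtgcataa
A match to the motif is a description of the letters and does not show that the A is methylated.

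Peaks of the network were mostly weak in fold enrichment and mostly well called. A peak was found in 80.0% of the 10 genes (95% Wilson interval 49.0 to 94.3, counting error only), beside 46.3% of all annotated protein-coding genes. Their fold enrichments ran from 1.28 to 51.2 with a median of 1.96, beside a median of 2.66 over all peaks (interquartile range 1.73 to 9.48) and 2.02 over all peaks centred in a 3′ UTR. Of the 14 peaks, 10 were below the median of the whole list and 9 were under 2.1. Only the peak of Mxi1 and 1 of the 3 peaks of Mga reached a fold enrichment of 5, which is 14.3% of the network's peaks against 34.6% of all peaks. By gene, 2 of the 8 (25.0%, interval 7.15 to 59.1) had such a strong peak, beside 43.4% of all coding genes with a peak. In contrast, 13 of the 14 (92.9%) had a p-value under 0.001, beside 61.5% of all peaks.

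**Figure D1:**
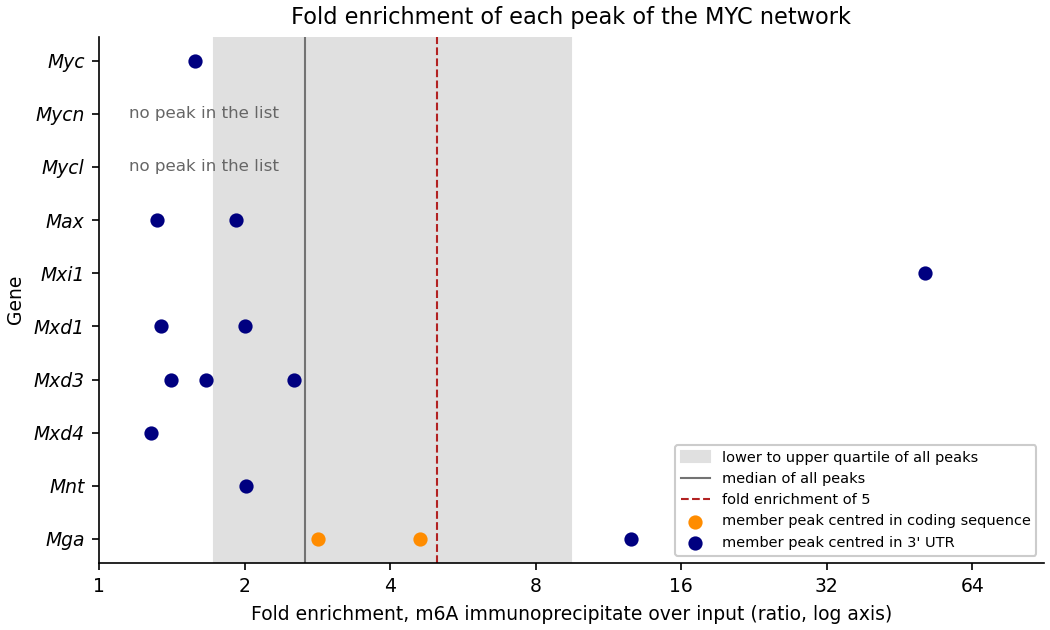
Fold enrichment of m6A immunoprecipitate over input (ratio, log axis) for each peak of the 10 genes, with points coloured by the region of the peak's centre, the grey band from the lower to the upper quartile of all peaks and the dashed line at 5. The Mxi1 peak at 51.2 and the Mga peak at 12.6 lie right of the dashed line, and the other 12 lie between 1.28 and 4.61.

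The activators were represented by Myc alone. Myc (ENSMUSG00000022346) had 1 peak, at chr15:61989777-61990135 on the plus strand (GRCm38), enriched 1.58-fold over input (log10 p-value -22.1). This fold enrichment was higher than 17.8% of all peaks, and the p-value was lower than that of 87.5% of them, so the lowest p-value of the network came with 1 of its smaller ratios. The peak lay whole within exon 3 of 3 and straddled the stop codon. Its first 132 nt were coding, from codon 397 to the stop at codon 440, and the other 227 nt were 51.4% of the 442-nt 3′ UTR. The centre fell 50 nt past the stop codon, and 7 of the 8 coding isoforms contained part of it.

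The Myc peak was dense in motif. It held 16 DRACH sites in 359 nt, which is 44.6 per kb, against 19.2 per kb in the rest of the transcript. Among all 6006 placed peaks with 200 to 600 exonic nt this density was higher than in 99.4%, and their median was 19.5 per kb. Of the 16 sites, 6 lay in the coding part printed above and 10 in the 3′ UTR. The 100 nt with the most sites held 9 of them, from 65 nt before to 12 nt past the stop codon. The peak held 2 GGAC sites, 1 on either side of the stop codon, and both are among the sequences shown.

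Mycn and Mycl, the MYC paralogs best known from neural and lung cells, were listed with no peak. The Mycn transcript of 2674 nt held 41 DRACH sites (15.3 per kb), and the Mycl transcript of 3501 nt held 70 (20.0 per kb), so both carry the motif. The list holds called peaks only and no levels, so an mRNA that is not expressed and an mRNA without m6A cannot be told apart here.

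MAX, the shared partner, was encoded by an mRNA with 2 peaks, both in the 3′ UTR within exon 5 of 5. The first, at chr12:76938168-76938288 on the minus strand, was enriched 1.32-fold (log10 p-value -7.29), and its centre lay 342 nt past the stop codon. The second, at chr12:76937269-76937988, was enriched 1.92-fold (log10 p-value -20.9). It ran to the last base of the transcript and covered 55.4% of the 3′ UTR. The first lay in all 3 coding isoforms and the second in 2 of them. The Max peaks were sparse in motif, with 6 DRACH sites in 841 nt, or 7.13 per kb, against 25.4 per kb in the rest of the transcript. Both activator partners thus had low p-values and ratios under 2, but Myc had the highest and Max the lowest motif density within peaks of the 8 genes.

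**Figure D2:**
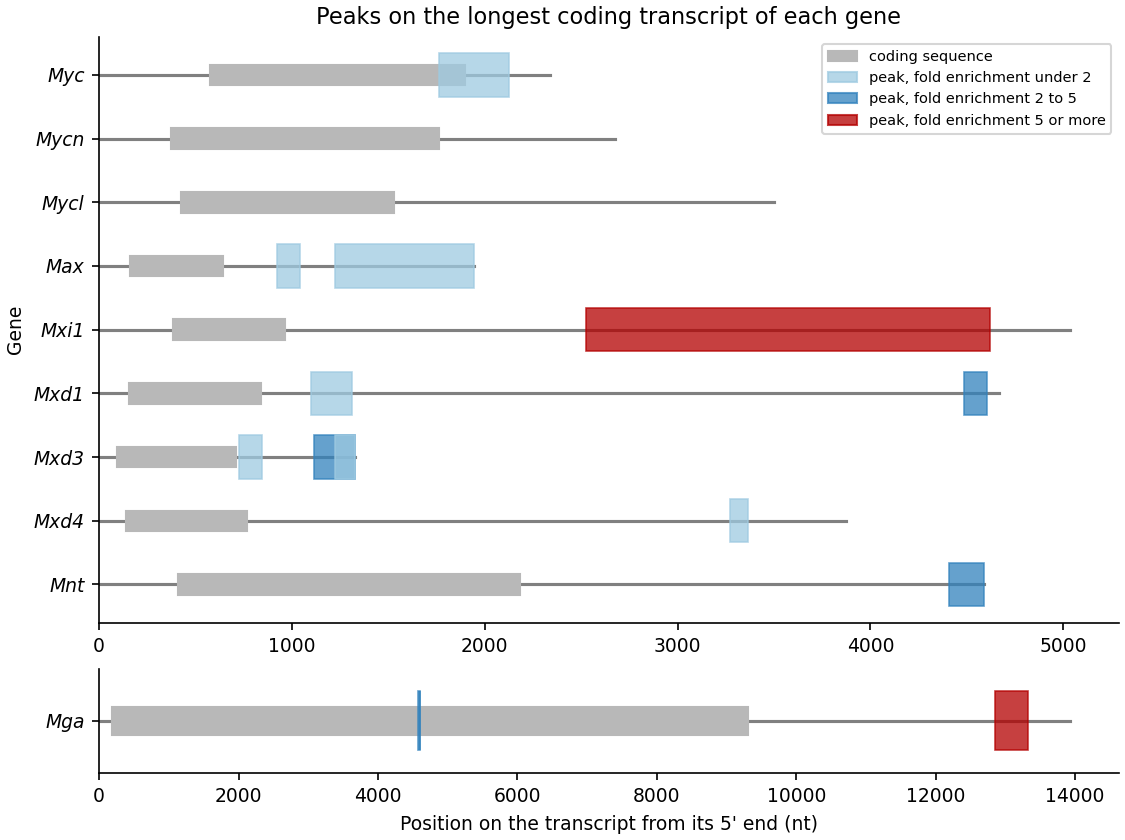
The longest coding transcript of each gene to scale (x axis, nt from the 5′ end), with the coding sequence as a grey box and each peak as a box coloured by fold enrichment. Of the 14 peaks 12 are centred right of the coding sequence, the Myc peak crosses the end of the coding sequence, and the 2 coding Mga peaks adjoin each other within the coding sequence.

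Among the repressors Mxi1 stood apart in value. Mxi1 (MAD2), an antagonist of MYC that recruits SIN3, had 1 peak of 2093 nt at chr19:53373300-53375392 on the plus strand. Its fold enrichment of 51.2 was higher than 94.9% of all peaks, and its log10 p-value was -11.2, lower than 76.5% of them. The peak covered 51.4% of a 4074-nt 3′ UTR, was centred 2612 nt past the stop codon and held 44 DRACH sites, 5 of them GGAC. That is 21.0 per kb, against 22.4 in the rest of the transcript. Only 1 of the 8 coding isoforms, the one with this long 3′ UTR, contained the peak. The value is coarse: 21 other peaks of the list had the same fold enrichment and p-value, and 51.2 is 27 times a step of 1.897 of which 78.4% of all fold enrichments between 5 and 30 were whole multiples.

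Mxd1 (MAD1), a repressor that rises as many cells differentiate, had 2 peaks at opposite ends of its 3829-nt 3′ UTR. The one near the coding sequence, chr6:86650398-86650607 on the minus strand, was enriched 1.34-fold (log10 p-value -6.08). The distal one, chr6:86647102-86647222, was enriched 2.0-fold (log10 p-value -4.05). Their centres lay 370 and 3711 nt past the stop codon. They held 5 and 3 DRACH sites and no GGAC, and each lay in 1 of the 2 coding isoforms. A further peak within the bounds of Mxd1, at chr6:86664803-86665551, names the provisional gene model Gm44292 on the same strand and was enriched 56.9-fold (log10 p-value -12.6). It touched no exon of Mxd1 and was not counted as a peak of the network.

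Mxd3 (MAD3) had 3 peaks in a 3′ UTR of 615 nt. The first, chr13:55325648-55325767 on the minus strand, was enriched 1.66-fold (log10 p-value -3.34) and was centred 77 nt past the stop codon. The second, chr13:55325168-55325378, was enriched 2.53-fold (log10 p-value -3.38) and ended at the last base of Mxd3. The third, chr13:55325062-55325272, was enriched 1.41-fold (log10 p-value -16.9). Of its 211 nt, 106 lay past the end of Mxd3, and all 211 lay on exons of Prelid1, a mitochondrial lipid transfer gene that is transcribed towards Mxd3 and shares 105 nt with it. The third peak ended exactly at the last base of Prelid1. The list has no column for strand, so reads of Mxd3 and of Prelid1 cannot be told apart in the last 2 of these peaks. Prelid1 also had a peak of its own, at chr13:55321997-55322868, enriched 2.21-fold (log10 p-value -47.5). The first Mxd3 peak lies clear of Prelid1 and held 4 DRACH sites, including the GGAC site shown above.

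Mxd4 (MAD4) and Mnt, both MAX partners that repress, each had 1 short peak far into the 3′ UTR. The Mxd4 peak, chr5:34174396-34174486 on the minus strand, had the lowest fold enrichment of the network, 1.28 (log10 p-value -3.52). It was centred 2553 nt past the stop codon and lay within the antisense gene Gm42846 but on no exon of it. The Mnt peak, chr11:74845546-74845725 on the plus strand, was enriched 2.01-fold (log10 p-value -4.31) and ran to the last base of the transcript. In both genes the peak lay in 1 of 2 coding isoforms and was denser in DRACH sites than the rest of the transcript, with 33.0 against 16.9 per kb in Mxd4 and 33.3 against 14.5 per kb in Mnt. These densities rest on 3 and 6 sites.

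Mga, whose transcript of 13931 nt is the longest of the network, had 3 peaks of 2 kinds. The third, chr2:119968502-119968982 on the plus strand, lay in the 3′ UTR with its centre 3779 nt past the stop codon, and was enriched 12.6-fold (log10 p-value -6.53). It held 11 DRACH sites and lay in 3 of 5 coding isoforms. The other 2 peaks were the only ones of the network outside a 3′ UTR, and they met at an exon junction in the coding sequence. The first, chr2:119935642-119938527, was enriched 4.61-fold (log10 p-value -3.52), and its span of 2886 nt was mostly intron. It touched 25 nt of coding exon 13 and 36 nt of an exon that belongs to a non-coding isoform. The second, chr2:119938587-119938647, was enriched 2.84-fold with a log10 p-value of -1.77, the only one of the 14 with a p-value above 0.001. Of its 61 nt, 9 lay in coding exon 14 and all 61 in exons of non-coding isoforms. The exonic bases of both peaks are shown because the coding part is so short, with capitals for bases of the coding isoforms.
Mga, first peak, chr2:119935642-119935666, plus strand: TTCAACTACATCTGGGCTTATCCAG
Mga, first peak, chr2:119938492-119938527, plus strand: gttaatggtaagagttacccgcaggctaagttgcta
Mga, second peak, chr2:119938587-119938647, plus strand: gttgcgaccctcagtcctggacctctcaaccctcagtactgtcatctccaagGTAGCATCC
None of the coding bases of these 2 peaks held a DRACH site, and the 1 GGAC of the second peak lies in its lower-case part, outside the coding isoforms. Both pairs of values recur in the list, with 5 other peaks sharing those of the first and 15 those of the second.

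**Figure D3:**
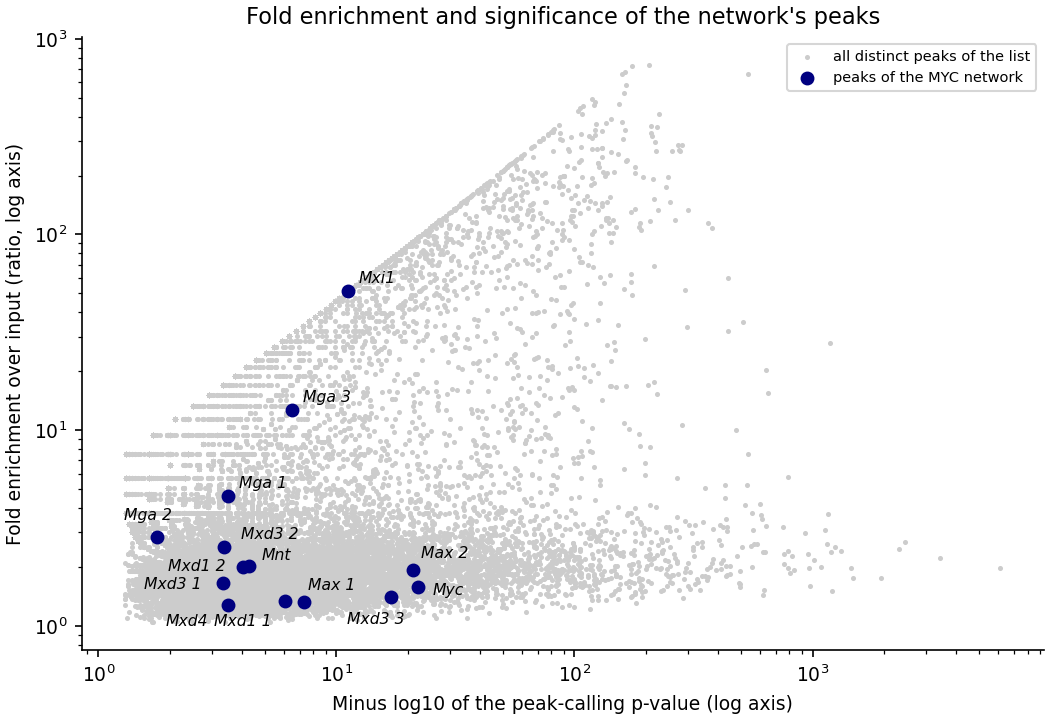
Fold enrichment (ratio, log axis) against minus log10 of the p-value (log axis) for all 20727 distinct peaks in grey and the 14 peaks of the network in blue, numbered from the 5′ end where a gene has more than 1. Mxi1 lies on the upper edge of the cloud, where fold enrichment and p-value move in step, while Myc at 1.58 and the second Max peak at 1.92 lie far right among low ratios.

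Ordered by the strongest peak of each gene, fold enrichment ran from Mxi1 (51.2) and Mga (12.6) through Mxd3 (2.53), Mnt (2.01), Mxd1 (2.0), Max (1.92) and Myc (1.58) to Mxd4 (1.28). By lowest log10 p-value the order was Myc (-22.1), Max (-20.9), Mxd3 (-16.9), Mxi1 (-11.2), Mga (-6.53), Mxd1 (-6.08), Mnt (-4.31) and Mxd4 (-3.52). The 2 orders thus put different genes first. With 1 value per peak, whether neighbours in either order differ was not tested. In both orders the value of Mxd3 comes from a peak that overlaps Prelid1. The Mxd3 peak clear of Prelid1, with 1.66 and -3.34, would place the gene between Max and Myc in the first order and last in the second.

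The peaks shared a place in the 3′ UTR, but not one position within it. Of the 14 peaks, 12 (85.7%) were centred in the 3′ UTR, beside 56.5% of all placed peaks, 2 in the coding sequence and 0 in the 5′ UTR. Those within 200 nt of the stop codon were the Myc peak and the first Mxd3 peak, which is 14.3% beside 22.3% of all placed peaks. Of the 12, 3 were centred within the first 20% of the 3′ UTR (25.0%, beside 19.9% of all peaks centred in a 3′ UTR) and 6 within the last 20% (50.0%, beside 30.8%). There were 5 at least 1000 nt past the stop codon (41.7%, beside 39.9%), and 4 that reached the last base of the transcript (33.3%, beside 30.6%). The members that reach it are Max, Mnt and, with 2 peaks, Mxd3. These 2 Mxd3 peaks overlap each other and Prelid1, and both are also among the 6 in the last 20%.

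Motif density over the network was close to that of the list. The peaks held 106 DRACH sites in 4846 exonic nt, or 21.9 per kb, beside 20.3 per kb in all placed peaks and 20.4 per kb in the same transcripts outside peaks. This pooled density leans on the long Mxi1 peak, which gave 44 of the sites over 2093 nt. By gene the density within peaks ran from 7.13 per kb in Max to 44.6 in Myc. The overlap of the distal 2 Mxd3 peaks counts 2 of the 106 sites in both, which leaves 104 distinct sites. In 5 of the 8 genes (Myc, Mxd1, Mxd3, Mxd4 and Mnt) peaks were denser than the rest of the transcript, and in Max, Mxi1 and Mga they were not. Counted as the letters GGAC on the strand of the gene, 9 of the 14 peaks had at least 1.

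**Figure D4:**
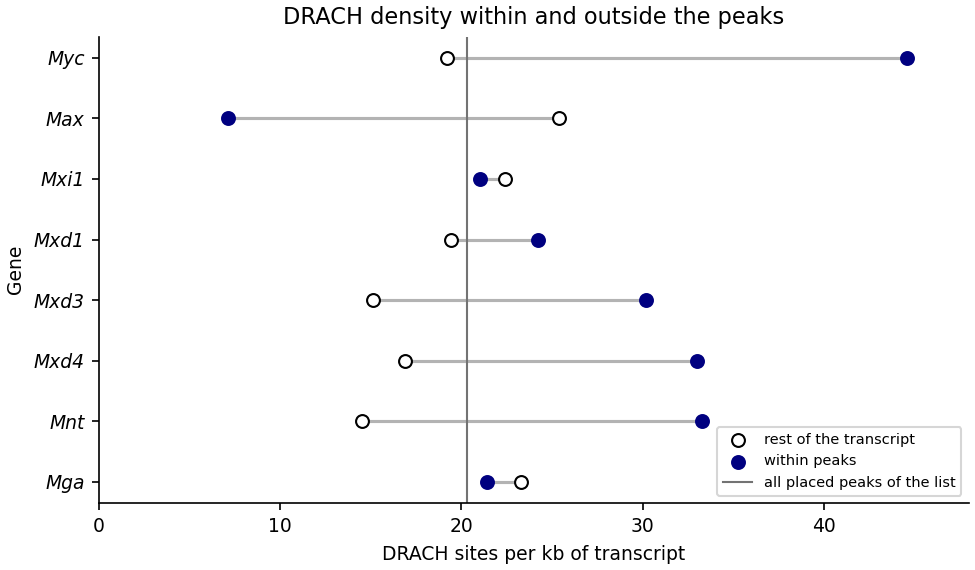
DRACH sites per kb of transcript within peaks (filled) and in the rest of the longest coding transcript (open) for the 8 genes with a peak, with a line at the 20.3 per kb of all placed peaks. Myc spans 19.2 outside to 44.6 within, whereas Max goes the other way, from 25.4 outside to 7.13 within.

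Genes that act with or on the network are given by list, and none of these shares was tested. The coarse step described for Mxi1 was read from fold enrichments of the whole peak list. High values named below can therefore be coarse too, and they do not measure how much of an mRNA is methylated. Over all annotated protein-coding genes 46.3% had a peak, and 43.4% of those had a strong one. Cofactors had a peak in 11 of 15 genes (73.3%) and a strong one in 5 of these (45.5%). The highest fold enrichments were those of Trrap (19.0), the scaffold through which MYC recruits histone acetyltransferases, Actl6a (13.3) and the ATPase gene Ruvbl2 (9.48). Sin3b, which encodes a corepressor bound by the MXD proteins, had a log10 p-value of -29.9. Of the extended network, Mlx, Mlxip and Mlxipl, 0 of 3 genes had a peak.

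Genes of MYC protein turnover had a peak in 11 of 13 (84.6%) and a strong one in 6 of these (54.5%). Gsk3b (26.6), the kinase that marks MYC for degradation, Ppp2ca (20.9), a phosphatase subunit that acts on the same region of MYC, and the deubiquitinase gene Usp28 (13.3) had the highest fold enrichments. Set, an inhibitor of that phosphatase, had the lowest log10 p-value at -91.8, followed by Gsk3b at -34.6. Proteins known to bind Myc mRNA were encoded by 10 genes, of which all 10 (100%) had a peak and 8 (80.0%) a strong one. The highest were Syncrip (140), Dhx9 (131) and Igf2bp3 (47.4), and the lowest log10 p-values were those of Dhx9 (-172) and Hnrnpd (-55.3), which binds AU-rich elements. The median over all peaks of that list was 2.23, so the strong peaks stood beside many weak ones.

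Textbook targets of MYC had a peak in 21 of 24 genes (87.5%, beside 46.3% of all protein-coding genes). A strong one was found in 9 of these (42.9%, beside 43.4% of all coding genes with a peak). Fbl (360), which encodes the rRNA methyltransferase fibrillarin, Nop58 (58.8), a partner of fibrillarin, and the arginine methyltransferase gene Prmt5 (34.6) were highest, and the lowest log10 p-values were those of Ncl (-599), which encodes nucleolin, and Fbl (-210). Cad, Slc7a5 and Tert had no peak. The other helix-loop-helix factors, the family most like the network in structure, had a peak in 18 of 20 genes and a strong one in 6 (33.3%). Tcf4 (49.3), Arntl (49.3) and Tfeb (36.0) had the highest fold enrichments and Bhlhe41 (-32.9) and Bhlhe40 (-28.7) the lowest log10 p-values. Arntl and Tcf4 also shared their lowest log10 p-value, -10.8. Median fold enrichments were 2.17 for these factors and 2.0 for the targets, beside 1.96 for the network.

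**Figure D5:**
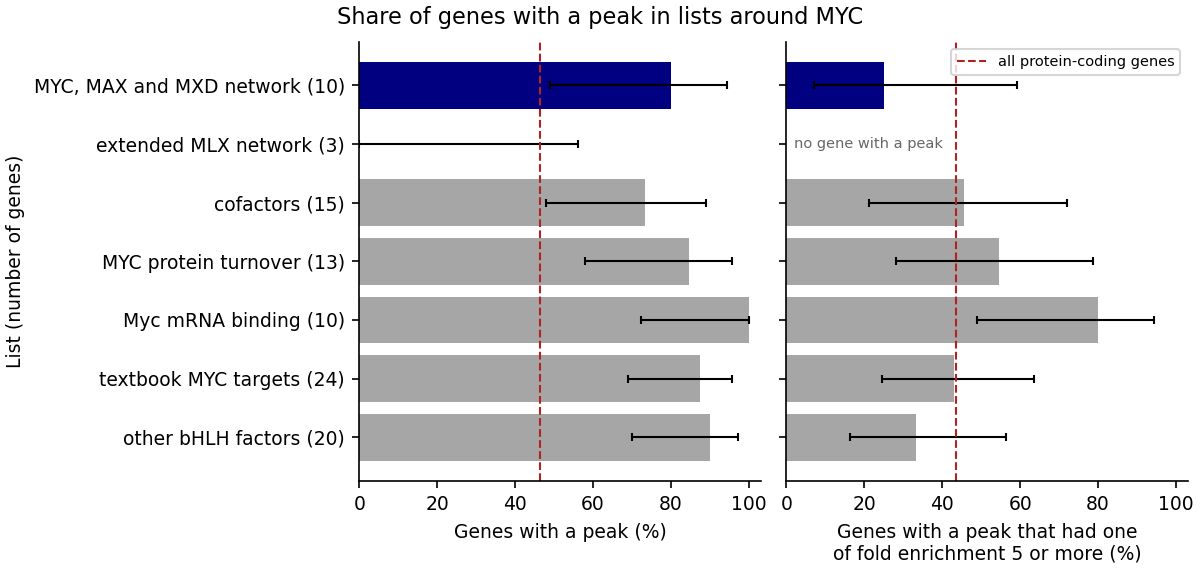
Percent of genes with a peak (left) and percent of those genes with a peak of fold enrichment 5 or more (right) in each list, with 95% Wilson intervals and dashed lines at 46.3% of all protein-coding genes and 43.4% of those with a peak. The network in blue stands at 80.0% and 25.0%, and its intervals overlap those of each other list drawn in the same panel.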

How the data were processed

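Per the study's methods, the authors trimmed reads, aligned them with HISAT2, called peaks with exomePeak and annotated them with ChIPseeker; submitters' notes name GRCm38. The deposited list holds, for each peak, a fold enrichment (a ratio of immunoprecipitate to input) and a score, the log10 of the p-value (weakest -1.3). It has 0 columns per sample and none for strand, so no test between libraries was possible and the design fixed none. Spans include introns, and 1 value per peak hides any difference between replicates.

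Of 20751 rows, 24 repeats were dropped. Peaks were matched by Ensembl gene and placed, by the centre of their exonic part, on the longest coding transcript of GENCODE M21 (15706 peaks). All 10 member transcripts matched between annotation and genome. DRACH was counted at its A on the gene's strand. Strong means a fold enrichment of at least 5. The code was tested on simulated data. Intervals are 95% Wilson intervals. Python 3.11.15, pandas 2.3.3, numpy 2.4.6, pysam 0.24.0 and statsmodels 0.14.6 were used.

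Members and lists were chosen with earlier results of these data known. All members were named with every peak, peaks of other genes that overlap them, and, per list, at most the 3 genes with the highest fold enrichment and the 2 with the lowest log10 p-value. Lists of NK and other cell markers, Gm44292 and Prelid1 details, and genes listed without a peak were added later. Some genes of the lists are counted but not reported by name here.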

Additional observations from a re-analysis of the deposited data

How the results depend on the processing

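Of 39 alternatives tried on 7 results, 28 were counted as giving the same value and 11 as moving it. A change of 1.5 times was the limit set. The RRACH count, at 16.7 against 21.9 per kb, was counted among the 11 although it changed by less than that. The fold enrichment decided most. When peaks had to be enriched at least 2-fold, the network kept 7 of its 14 peaks in 5 of its 8 genes, with 5 peaks centred in the 3′ UTR and 0 within 200 nt of the stop codon, so the peaks of Myc, Max and Mxd4 fell away. At 5-fold it kept 2 peaks in 2 genes, of which 2 were in the 3′ UTR but 0 in that window. A window of 400 nt raised the peaks near the stop codon from 2 to 4. Sites per kb of peak were 2.89 for GGAC and 16.7 for RRACH, which are rarer than DRACH by construction. A p-value under 0.001, other transcripts, the centre of the span and, chosen after seeing the data, leaving out the Mxd3 peak that reaches past its gene stayed within 1.5 times for each result they were run on. No paired analysis was possible because the list has no column per sample. Omission of each replicate could not be run for the same reason. Depth is unknown, so a gene without a peak is not shown to lack m6A, and the p-values carry no adjustment.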
